A study of Mus musculus with 8 samples.

Results

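Chemokines are small secreted proteins that draw leukocytes along a concentration gradient, and 10 of their genes, Ccl2, Ccl7, Ccl11, Ccl19, Cxcl1, Cxcl9, Cxcl10, Cxcl13, Cxcl14 and Cxcl16, were followed through the cells of mouse long bones. The genes were taken by symbol from the 8 deposited gene-by-cell matrices, and all 10 were found in each matrix. A second feature that also carries the symbol Ccl19 (ENSMUSG00000094661) had 0 UMIs and was left out. The study removed the SOXC transcription factor genes from bone-forming cells. Controls carried floxed alleles of all SOXC genes (Sox4, Sox11 and Sox12, each fl/fl) and no Cre, and mutants carried the same alleles with OsxCre. OsxCre is a tetracycline-repressed transgene active mainly in the osteoblast lineage, and doxycycline held it silent through the first weeks of life. All mice were females, control and mutant sisters of 7 or 13 weeks, with 2 mice per genotype and age and 1 library per mouse. No mouse in the series carried OsxCre with wild-type SOXC alleles, so effects of SOXC loss and of the transgene cannot be told apart. Femurs and tibiae were scraped free of periosteum, flushed, digested with enzymes and depleted of haematopoietic cells on magnetic columns before 10x Genomics 3′ single-cell RNA sequencing.

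Chemokines signal through G protein-coupled receptors on the cells they attract, and both the CC and the CXC family are named for the spacing of cysteines near the start of the protein. Some are made steadily and place lymphocytes or progenitors within a tissue. Others are switched on by inflammatory cytokines, most of them through NF-kB, or by interferons through STAT and IRF proteins. In marrow, the perivascular stromal cells that carry the leptin receptor (Lepr) are known as a main source of Cxcl12, the chemokine that retains haematopoietic progenitors.

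The genes lie in a few clusters. In GRCm38 (mm10), Ccl2 (chr11:82035571-82037453), Ccl7 (chr11:82045712-82047525) and Ccl11 (chr11:82057823-82062955) are all on the plus strand and follow one another with gaps of 8.26 kb and 10.3 kb. Cxcl9 (chr5:92321347-92328079) and Cxcl10 (chr5:92346638-92348889) lie on the minus strand of chromosome 5, 18.6 kb apart. The same chromosome holds Cxcl1 (chr5:90891241-90893115) and Cxcl13 (chr5:95956951-95961068), both on the plus strand. The remaining genes are Ccl19 (chr4:42754525-42756577), Cxcl14 (chr13:56288643-56296551) and Cxcl16 (chr11:70453983-70459984), all on the minus strand.

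RefSeq promoter windows (GRCm38.p6) were at hand for 6 of the 10 genes. The 4 windows shown here, each the 250 bases before the annotated start site on the gene's own strand, belong to the interferon-induced pair Cxcl9 and Cxcl10, to Cxcl1, whose induction by NF-kB is textbook knowledge, and to Ccl19, since the levels of these genes differed between mice or between cell types in the results that follow. Capitals mark a form of the NF-kB motif (GGG, any 3 bases, TTCC) and a form of the interferon-stimulated response element (ISRE; GAAA, any 2 bases, GAAA), both searched on either strand.
Cxcl10 (chr5:92348890-92349139, minus strand): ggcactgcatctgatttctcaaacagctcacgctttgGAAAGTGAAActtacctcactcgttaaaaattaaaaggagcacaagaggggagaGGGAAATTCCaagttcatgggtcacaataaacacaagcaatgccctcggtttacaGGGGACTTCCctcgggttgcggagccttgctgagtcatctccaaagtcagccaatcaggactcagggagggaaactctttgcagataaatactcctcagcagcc
Cxcl9 (chr5:92328080-92328329, minus strand): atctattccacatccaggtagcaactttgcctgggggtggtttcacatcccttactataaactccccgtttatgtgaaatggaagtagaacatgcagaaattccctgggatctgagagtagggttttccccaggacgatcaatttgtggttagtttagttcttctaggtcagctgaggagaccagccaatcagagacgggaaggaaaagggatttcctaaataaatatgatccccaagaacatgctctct
Cxcl1 (chr5:90890995-90891244, plus strand): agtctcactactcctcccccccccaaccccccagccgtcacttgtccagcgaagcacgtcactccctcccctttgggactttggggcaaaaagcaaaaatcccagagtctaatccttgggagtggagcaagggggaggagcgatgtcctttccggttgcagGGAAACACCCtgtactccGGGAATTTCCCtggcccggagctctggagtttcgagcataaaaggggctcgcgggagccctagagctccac
Ccl19 (chr4:42756366-42756615, minus strand): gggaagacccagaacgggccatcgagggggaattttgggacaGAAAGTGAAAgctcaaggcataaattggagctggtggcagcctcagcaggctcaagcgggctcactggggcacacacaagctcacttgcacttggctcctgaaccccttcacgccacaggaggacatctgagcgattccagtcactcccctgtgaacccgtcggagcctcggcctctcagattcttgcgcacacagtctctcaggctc
The Cxcl10 window held the ISRE-type motif at -213 and the NF-kB-type motif at -159 and -104, counted in bases from the start site to the first base of the match. The Cxcl1 window held the NF-kB-type motif at -89, -71 and -70, the last pair being overlapping matches on opposite strands. Ccl19 had the ISRE-type motif at -208, and Cxcl14 had it at -172. Neither motif was found in the windows of Cxcl9 and Cxcl13. Among the windows of the same length of 32851 promoters, 4.65% held the NF-kB-type motif and 2.98% held the ISRE-type motif, and a match describes letters only. For Cxcl9, Cxcl10 and Cxcl14 the RefSeq start site is the end of the gene span given above, and for Cxcl13 it lies outside the span. For Ccl19 and Cxcl1 it lies inside, so that 212 of the 250 bases of the Ccl19 window and 4 of those of the Cxcl1 window do too.

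The libraries held 12086 to 14151 barcodes and 81894604 to 156090286 UMIs (unique molecular identifiers, each standing for 1 captured transcript molecule). After limits on genes and mitochondrial UMIs and removal of doublets, 59629 cells remained, 6410 to 8753 per mouse, with medians of 6531 to 12671 UMIs per cell. The replicate 1 library was the deeper one in every group. At most 23 barcodes were shared by any pair of libraries. Clusters were named from marker lists, as Lepr+ MSC-like (marrow mesenchymal stromal cells, 4073 cells), osteoprogenitor-like (4505), Sca1+ MSC-like (494), preosteoblast-like (573), osteoblast-like (23758), pericyte-like (916), endothelial-like (3498), hypertrophic chondrocyte-like (2462), growth plate chondrocyte-like (2109), haematopoietic progenitor-like (3172) and erythroid-like (1627). The 10 chemokines took no part in the clustering. In Lepr+ MSC-like cells, 14 of 15 markers counted, and Adipoq, Cxcl12, Hp and Lpl led the cluster. In the osteoprogenitor-like cluster 13 of the same markers counted, so that this count hardly separates the 2 types. The osteoprogenitor-like cluster was also led by A2m and Mmp13, which were listed as preosteoblast markers. Sox4, the targeted gene with the most UMIs there, was at 365 to 446 CPM in Lepr+ MSC-like cells of the 4 controls and at 149 to 204 CPM in those of the 4 mutants.

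A single library stood apart. The Lepr+ MSC-like cells of the replicate 1 control of 13 weeks had the highest level of the 8 mice for 7 of the 9 chemokines that could be tested there, all but Cxcl1 and Cxcl14. Beside this, the summed level of 30 interferon signalling and response genes, which include none of the 10 chemokines, was 7058 CPM in that mouse and 3508 to 4349 CPM in the other 7. The same sum was highest in this mouse in endothelial-like cells, at 6433 against 3739 to 4565 CPM, in Sca1+ MSC-like cells, at 4144 against 946 to 2246 CPM, and in erythroid-like cells, at 1393 against 736 to 804 CPM. Summed macrophage markers were lowest there, at 157 against 207 to 329 CPM in the Lepr+ MSC-like cells, and lymphocyte markers were at 3.61 to 14.8 CPM over the 8 mice. Values without this mouse are given beside many of the results that it moved.

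Where the chemokines came from was read first. Levels are CPM, the UMIs of a gene over all UMIs summed for that mouse and cell type, scaled to 1000000 and by edgeR's trimmed mean of M-values (TMM), and they are given as the mean ± SD over the 4 control mice. Lepr+ MSC-like cells made up 4073 of the 59629 cells and held most of the UMIs of 7 of the 10 genes: 84.8% for Cxcl13, 64.2% for Ccl2, 64.0% for Cxcl14, 62.1% for Ccl19, 57.8% for Ccl7, 52.4% for Cxcl9 and 50.5% for Cxcl1. They also held 31.4% of the Cxcl16 and 30.8% of the Cxcl10 UMIs, and 13.0% of the few of Ccl11. Of the 18889 Cxcl9 UMIs in Lepr+ MSC-like cells, 8995 were from the replicate 1 control of 13 weeks. That mouse held 13249 Cxcl9 UMIs over its non-haematopoietic cells, of 36062 in all kept cells. Without it Lepr+ MSC-like cells no longer held most of the Cxcl9 UMIs. Haematopoietic types held under 1% of the UMIs, except for 8.42% of Cxcl10 and 1.85% of Ccl11. Cell types come from the clustering of these same cells, so the order of levels is a description with no test.

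Ccl2 and Cxcl14 had control ranges in Lepr+ MSC-like cells that overlapped with no other type. Ccl2 averaged 717 ± 638 CPM there and 121 ± 32.7 CPM in osteoprogenitor-like cells, the next type. Cxcl14 averaged 2534 ± 654 CPM, then 599 ± 566 CPM in Sca1+ MSC-like cells and 537 ± 225 CPM in osteoprogenitor-like cells. Cxcl13 averaged 137 ± 131 CPM in Lepr+ MSC-like cells and 8.30 ± 9.74 CPM in pericyte-like cells, its next type, and its lowest Lepr+ control lay below the highest osteoprogenitor-like one. Ccl7 averaged 91.4 ± 32.2 CPM, with 27.0 ± 15.6 CPM in Sca1+ MSC-like cells, and Ccl19 averaged 113 ± 101 CPM, with 37.4 ± 33.9 CPM there. For Cxcl1, pericyte-like cells at 724 ± 428 CPM overlapped with Lepr+ MSC-like cells at 1256 ± 250.03 CPM. Both interferon-induced genes reached beyond the stroma. Cxcl9 was at 909.6 ± 619.6 CPM in Sca1+ MSC-like and 338 ± 217 CPM in endothelial-like cells, and Cxcl10 at 394 ± 163 CPM in endothelial-like cells, all with ranges that overlapped with Lepr+ MSC-like cells (1040.1 ± 990.1 CPM for Cxcl9, 549 ± 500.4 CPM for Cxcl10). Without the replicate 1 control of 13 weeks, the Lepr+ MSC-like controls were at 458, 486 and 700 CPM for Cxcl9. Those of Sca1+ MSC-like cells were at 273, 936 and 685 CPM. For Cxcl10 the same controls were at 353, 218 and 330 CPM in Lepr+ MSC-like and at 565, 355 and 185 CPM in endothelial-like cells. That mouse thus set the first rank of Lepr+ MSC-like cells for both genes. Cxcl16 was alike in Lepr+ (44.6 ± 28.8 CPM) and Sca1+ MSC-like cells (44.3 ± 34.3 CPM) and was also found in endothelial-like cells (26.0 ± 2.47 CPM).

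**Figure D1:**
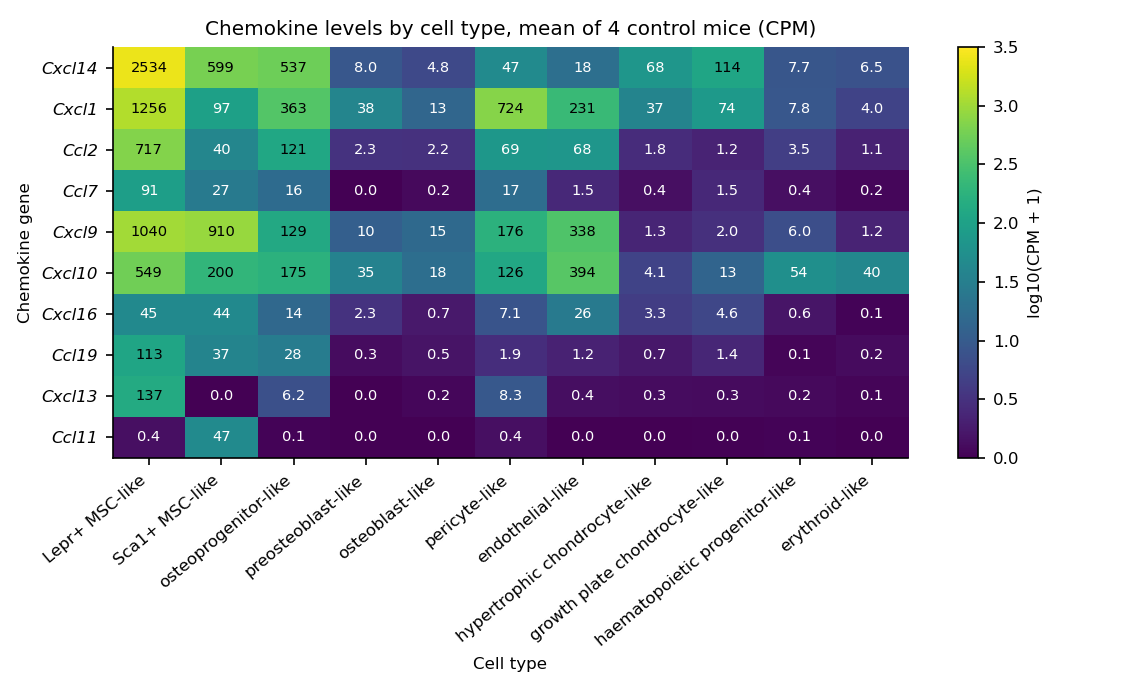
Mean level of each chemokine (rows) in each cell type (columns) over the 4 control mice, in CPM, with the colour on a log10(CPM + 1) scale. Lepr+ MSC-like cells have the highest mean for 9 of the 10 genes, and Ccl11 is highest in Sca1+ MSC-like cells.

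Along the osteoblast lineage the levels fell off steeply in the controls. Cxcl14 averaged 537 ± 225 CPM in osteoprogenitor-like cells and 4.84 ± 2.17 CPM in osteoblast-like cells, and Ccl2 averaged 121 ± 32.7 CPM and 2.17 ± 1.43 CPM. Of the chemokine UMIs in osteoblast-like cells, an interferon-led cluster of 609 cells, 1.51 to 3.86% of the osteoblast-like cells of a mouse, held 60.2 to 80.6% of Cxcl9 and 36.4 to 67.3% of Cxcl10 at 7 weeks, and 17.6 to 36.4% and 25.5 to 44.3% at 13 weeks.

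Genotype was compared in each cell type with edgeR's quasi-likelihood test on UMIs summed per mouse. The 8 mice of 4 groups entered 1 model and shared 1 estimate of the spread, and p-values were adjusted by Benjamini-Hochberg over all genes tested in the type. Over 9 cell types, the average over both ages, each age and the difference between ages, 228 fits of a chemokine were made. None passed an adjusted p of 0.05, and 51 had an unadjusted p under 0.05. The share of all genes under that unadjusted p differed by type and contrast, and for Lepr+ MSC-like cells it is given below. For the average it was 209 of 11626 genes in growth plate chondrocyte-like cells and 1655 of 14482 in osteoblast-like cells. No share over the same set of fits is given, so the count of 51 is not read as a result. When genes with low counts were kept, 52 of 340 fits were called, beside 0.507% of the fits of all genes. That share is over more genes, in Lepr+ MSC-like cells 19963 in place of 11596, the added ones with few UMIs. The 52 include Ccl11 in Sca1+ MSC-like and Cxcl13 in osteoprogenitor-like cells, which rest on few libraries and support nothing. In Lepr+ MSC-like cells 9 of the 10 chemokines had enough UMIs to be tested. For the average over ages 0 were called by edgeR, beside 0.164% of 11596 genes, and 0 by DESeq2. An unadjusted edgeR p under 0.05 was found for 4 of them and for 739 of the 11596 genes. The fold changes of 7 of these 9 were negative, with a median log2 fold change of -0.62 beside -0.01 over all genes tested. With the replicate 1 control of 13 weeks left out, 5 of the 9 were negative and the median was -0.029. When genes with low counts were kept, 5 chemokines (Ccl19, Ccl2, Cxcl9, Cxcl13 and Cxcl16) were called for the average beside 203 genes in all (1.02%). Their standard errors were smaller, at 0.17 to 0.18: Cxcl9 was at -0.95 ± 0.17 (SE) in place of -0.94 ± 0.35. Errors this alike hardly reflect each gene's own spread between mice. Calls with low counts kept within a cell type, above and below, are therefore not read as evidence about mice. At 7 weeks 0% of genes and none of the chemokines were called by edgeR or DESeq2. None had an unadjusted p under 0.05, beside 353 of 11596 genes, 6 fold changes were negative and their median was -0.26. At 13 weeks 0% of genes and none of the chemokines were again called by either tool, and 5 chemokines had an unadjusted p under 0.05, beside 579 of 11596 genes. There 8 fold changes were negative and the median was -0.98, while without the replicate 1 control of that age 5 were negative and the median was -0.042. Cxcl13 was called at 7 weeks with low counts kept (beside 0.331% of genes), and the 5 genes above and Cxcl10 at 13 weeks (beside 0.651%). For the difference of the genotype effect between ages edgeR gave adjusted p-values of 1.00 for the 9 and called 0% of genes, and with low counts kept it called Cxcl9 (-1.49, adjusted p = 0.0135) and Cxcl13 (-1.55, adjusted p = 0.0223) beside 0.0952% of genes.

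Mice of the same replicate number and age deviated from their group means together in 5 of the 9 types, where the numbers were taken to pair the mice. No label ties the numbers to litters, and replicate 1 was the deeper library in every group. Pairing and depth therefore cannot be told apart in the calls that follow. With each pair as a block, Ccl19, Cxcl9 and Cxcl13 were called in Lepr+ MSC-like cells for the average over ages and at 13 weeks, and no chemokine was called at 7 weeks. The share of all genes called there was then 1.21% for the average and 0.267% at 13 weeks. That fit leaves 2 residual degrees of freedom. For the other 6 genes its averages ran from -0.58 for Cxcl16 (adjusted p = 0.216) to 0.17 for Cxcl14 (adjusted p = 0.647), with adjusted p-values of 0.216 to 0.970 by edgeR.

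**Figure D2:**
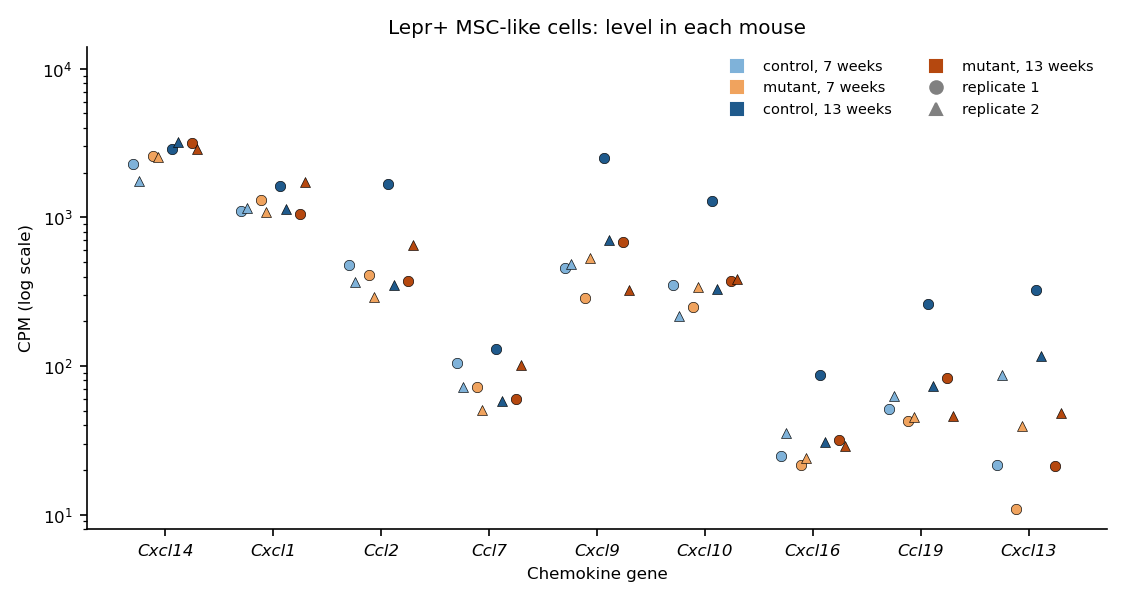
Level of 9 chemokines in Lepr+ MSC-like cells of each of the 8 mice, in CPM on a log axis, coloured by genotype and age, with the symbol giving the replicate number. The replicate 1 control of 13 weeks lies above the other 7 mice for every gene shown except Cxcl1 and Cxcl14.

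The monocyte attractants were taken first. Ccl2, a ligand of Ccr2 that draws monocytes out of marrow, was at 475 and 369 CPM in the controls and 411 and 292 CPM in the mutants at 7 weeks, and 1671 and 353 CPM in the controls and 374 and 649.5 CPM in the mutants at 13 weeks (Lepr+ MSC-like cells, replicate 1 first here and in the sentences that follow). The replicate 1 control of 13 weeks was highest, the other 7 mice lay within 292 to 649.5 CPM, and the genotypes overlapped at both ages. The average over ages was a change of -0.62 ± 0.36 (SE) on the log2 scale (adjusted p = 0.851), and at 13 weeks it was -0.98 ± 0.51 (SE, adjusted p = 0.999). Without the replicate 1 control of 13 weeks these values turned to 0.14 and 0.53. Ccl7, the neighbouring gene and another ligand of Ccr2, was at 105 and 72.7 CPM in the controls and 72.2 and 50.9 CPM in the mutants at 7 weeks, and 129.5 and 58.1 CPM in the controls and 59.9 and 101 CPM in the mutants at 13 weeks. Both mutants lay below both controls at 7 weeks by a narrow margin, and the groups overlapped at 13 weeks. The average was -0.37 ± 0.25 (SE, adjusted p = 0.9), with no call at either age. Leaving out the replicate 1 control of 13 weeks gave -0.029 for the average, and turned the 13-week value from negative to 0.48.

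Ccl11, the third gene of that cluster and the eosinophil attractant eotaxin, had 54 UMIs in all 59629 cells. Of these, 36 UMIs were in 5 of 494 Sca1+ MSC-like cells, and 7 UMIs were in 6 of 4073 Lepr+ MSC-like cells. In Sca1+ MSC-like cells the counts were 16, 18 and 2 UMIs in 3 controls, and 0 UMIs in the replicate 1 control of 7 weeks and in all 4 mutants. The test did not pass (adjusted p = 0.605, edgeR), and no fold is given because all mutants were at 0. With low counts kept it did (adjusted p = 2.06e-10). In the sum of the stromal types Ccl11 had 1, 16, 21 and 5 UMIs in the controls and 0, 0, 1 and 0 UMIs in the mutants. Of the fits for the average there, DESeq2 (adjusted p = 0.0445, beside 0.782% of genes) and the block (adjusted p = 0.0258, beside 1.65%) called it and edgeR without a block did not (adjusted p = 0.365). A gene that reaches a test through the one group where it has UMIs has to differ, so these calls support nothing.

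Cxcl1 and Cxcl14 had the smallest spread between controls, relative to the mean, of the 9 genes tested. Cxcl1, which draws neutrophils through Cxcr2, was at 1098 and 1162 CPM in the controls and 1303 and 1079.9 CPM in the mutants at 7 weeks, and 1628 and 1133 CPM in the controls and 1047 and 1737 CPM in the mutants at 13 weeks. The genotypes overlapped at both ages, and the average was a change of 0.04 ± 0.19 (SE) on the log2 scale (adjusted p = 1.00), with bounds of -0.34 to 0.43 at 2 SE. Its spread over the 4 controls was 19.9% of the mean, where counting alone would give 1.62%. Cxcl14, a chemokine made steadily in many epithelia and stromal tissues, was at 2283 and 1745 CPM in the controls and 2583 and 2535 CPM in the mutants at 7 weeks, and 2883 and 3224 CPM in the controls and 3152 and 2872 CPM in the mutants at 13 weeks. Both mutants lay above both controls at 7 weeks and the genotypes overlapped at 13 weeks. The average was 0.16 ± 0.16 (SE, adjusted p = 0.967), with bounds of -0.15 to 0.48. The fitted dispersion between mice of Cxcl14 stood at percentile 50.8 of all genes tested, while those of the other 8 stood between percentiles 78.5 (Cxcl1) and 99.4 (Cxcl13).

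The interferon-induced genes spread widely between control mice, by 95.2% of the mean for Cxcl9 and 91.1% for Cxcl10. Cxcl9, a Cxcr3 ligand that draws T and NK cells, was at 458 and 486 CPM in the controls and 287 and 536 CPM in the mutants at 7 weeks, and 2516 and 700.5 CPM in the controls and 687 and 323 CPM in the mutants at 13 weeks. The replicate 1 control of 13 weeks stood at several times every other mouse. At 13 weeks both mutants lay below both controls, one by a small margin, and at 7 weeks the genotypes overlapped. The average was a change of -0.94 ± 0.35 (SE) on the log2 scale (adjusted p = 0.605), and at 13 weeks it was -1.67 ± 0.50 (SE, adjusted p = 0.741). With the pairs as a block the values were -0.88 (adjusted p = 0.00845) and -1.499 (adjusted p = 0.00943), which passed. When the replicate 1 control of 13 weeks was left out of the fit with no block, they shrank to -0.34 (adjusted p = 1.00) and -0.48 (adjusted p = 1.00).

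Cxcl10, the other interferon-induced Cxcr3 ligand, was at 353 and 218 CPM in the controls and 249.8 and 338 CPM in the mutants at 7 weeks, and 1294 and 330.4 CPM in the controls and 374 and 383 CPM in the mutants at 13 weeks. All mice but the replicate 1 control of 13 weeks lay within 218 to 383 CPM, with the genotypes overlapping. The average was -0.53 ± 0.32 (SE, adjusted p = 0.857) and became 0.11 without that control, so its sign rested on 1 mouse. Cxcl16, a membrane-anchored chemokine and ligand of Cxcr6, was at 24.8 and 35.3 CPM in the controls and 21.8 and 24.0 CPM in the mutants at 7 weeks, and 87.3 and 31.1 CPM in the controls and 31.7 and 29.1 CPM in the mutants at 13 weeks. Both mutants lay below both controls at 7 weeks and the genotypes overlapped at 13 weeks. The average was -0.66 ± 0.27 (SE, adjusted p = 0.697), and -0.20 without the replicate 1 control of 13 weeks. That mouse was the outlying control for both Cxcl16 and Ccl19. With the replicate 2 control left out it is the only control of its age, so calls in that fit lean on it and support nothing. Leaving out the replicate 2 control of 13 weeks instead brought 0.341% of genes and both Cxcl16 and Ccl19 past the threshold, at -0.94 (adjusted p = 0.0415) and -1.20 (adjusted p = 0.0265).

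Ccl19 and Cxcl13 place lymphocytes within lymphoid tissue. Ccl19, the Ccr7 ligand that guides T cells and dendritic cells, was at 51.2 and 62.7 CPM in the controls and 42.8 and 45.5 CPM in the mutants at 7 weeks, and 263 and 73.9 CPM in the controls and 82.6 and 46.4 CPM in the mutants at 13 weeks. Every mutant at 7 weeks lay below both controls, and at 13 weeks the replicate 1 mutant lay between the controls. The average was a change of -0.88 ± 0.32 (SE) on the log2 scale (adjusted p = 0.589), and at 13 weeks it was -1.40 ± 0.44 (SE, adjusted p = 0.79). With the pairs as a block these were -0.77 (adjusted p = 0.0208) and -1.20 (adjusted p = 0.0289), which passed, with the mutant below its numbered control in 4 of 4 pairs. Without the replicate 1 control of 13 weeks the average was -0.29 (adjusted p = 1.00) and the 13-week value -0.22 (adjusted p = 1.00). In osteoblast-like cells Ccl19 was at 0.215 to 0.846 CPM, with an average of -0.40 ± 0.31 (SE, adjusted p = 0.75).

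Cxcl13, the Cxcr5 ligand that draws B cells, was at 21.6 and 87.4 CPM in the controls and 10.9 and 39.6 CPM in the mutants at 7 weeks, and 324 and 117 CPM in the controls and 21.1 and 48.3 CPM in the mutants at 13 weeks. Each mutant lay below the control of its number in 4 of 4 pairs, the genotypes overlapped at 7 weeks, and both mutants lay below both controls at 13 weeks. Cxcl13 had the lowest fold change of the 9, at -1.85 ± 0.48 (SE, adjusted p = 0.261) for the average and -2.63 ± 0.66 (SE, adjusted p = 0.542) at 13 weeks. With the pairs as a block it passed at -1.76 (adjusted p = 0.00845) and -2.43 (adjusted p = 0.0224). Without the replicate 1 control of 13 weeks the average stayed negative at -1.39 (adjusted p = 0.632), as did the 13-week value at -1.71 (adjusted p = 1.00). In osteoblast-like cells Cxcl13 was at 0.0154 to 0.335 CPM, with an average of -1.20 ± 0.63 (SE, adjusted p = 0.542).

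**Figure D3:**
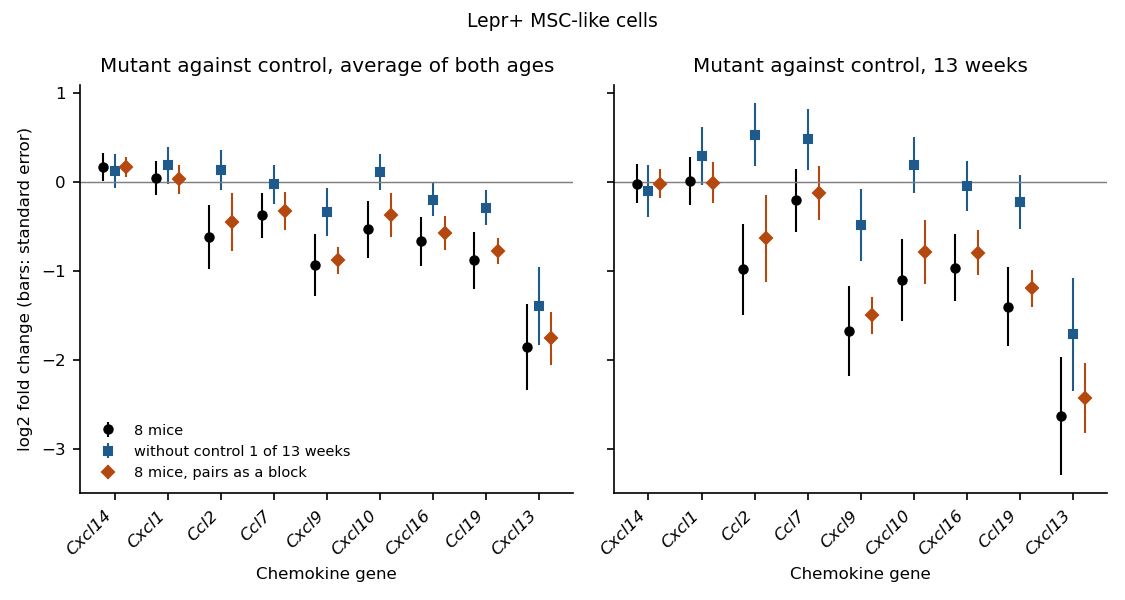
Log2 fold change, mutant against control, of 9 chemokines in Lepr+ MSC-like cells, with bars of 1 standard error, for the average over ages (left) and 13 weeks (right). Black points use 8 mice, blue squares leave out the replicate 1 control of 13 weeks, and orange diamonds use 8 mice with the pairs as a block. Without that control Ccl2 and Cxcl10 change sign in both panels and Ccl7 changes sign at 13 weeks. Cxcl13 stays lowest in all fits shown.

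The calls under the block were run again after leaving out both replicate 1 mice of 13 weeks, a choice made after their values were seen. This left 6 mice and 1 residual degree of freedom. For the average over ages, Cxcl9 (-0.69), Cxcl13 (-1.18) and Ccl19 (-0.51) were called as lower in the mutants, and Cxcl1 was called as higher (0.35), beside 2.59% of genes called. At 7 weeks Cxcl13 (-1.08) was called as lower beside 1.48% of genes. At 13 weeks the comparison rests on 1 pair and takes its spread from the mice of 7 weeks. There Cxcl9 (-1.12) and Cxcl13 (-1.27) were called as lower, and Cxcl1 (0.62), Ccl2 (0.88) and Ccl7 (0.80) as higher, beside 1.04% of genes. The values of Ccl2 and Ccl7 had the other sign with 8 mice.

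Levels can differ because more cells have transcripts or because each has more. Cells were therefore thinned to 2000 UMIs each, which left out 2 to 47 shallower cells per mouse and kept 294 to 812. Cxcl14 had at least 1 UMI in 92.5 to 98.2% of thinned Lepr+ MSC-like cells of every mouse, and Cxcl1 in 45.6 to 67.0%. Cxcl9 was found in 24.2 and 17.7% in the controls and 12.6 and 23.1% in the mutants at 7 weeks, and 69.1 and 19.5% in the controls and 19.0 and 14.0% in the mutants at 13 weeks of thinned cells. The replicate 1 control of 13 weeks had the highest share, and the shares of the other 7 mice lay within a narrow range in which the genotypes overlapped. Unthinned, the Cxcl9 share was 87.8% in that mouse and 20.3 to 40.6% in the others. Cxcl10 (47.9%), Ccl2 (59.8%), Ccl19 (34.8%) and Cxcl13 (19.3%) were likewise found in more thinned cells of that mouse than of any other.

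Erythroid-like cells were taken as a reference low in these genes. Their median depth of 16415 to 33408 UMIs per cell was above the 3531 to 8376 UMIs of Lepr+ MSC-like cells before thinning. Once thinned, their shares were 0 to 2.50% in every mouse for all chemokines except Cxcl10, at 4.42 to 9.46%. For Cxcl10 they are not an empty reference, at 40.3 ± 15.3 CPM in controls beside 4.05 ± 2.85 CPM in hypertrophic chondrocyte-like cells. In a two-sided exact permutation test of 4 mutants against 4 controls, the share did not pass for any of the 10 genes (smallest adjusted p of 0.429, Benjamini-Hochberg over 10 genes). For Cxcl9 the exact permutation test gave p = 0.171, adjusted p = 0.429, for Cxcl13 p = 0.0857, adjusted p = 0.429, and 4 against 4 mice allow no p under 0.0286. A gene alone at that limit would not pass after adjustment over 10 genes, so the lack of a pass in that test decides nothing. That test takes no account of age or of pairs. The mutant had the lower share in 4 of 4 pairs for 2 genes, Cxcl13 and Cxcl16, and 4 pairs allow no two-sided exact permutation p under 0.125.

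**Figure D4:**
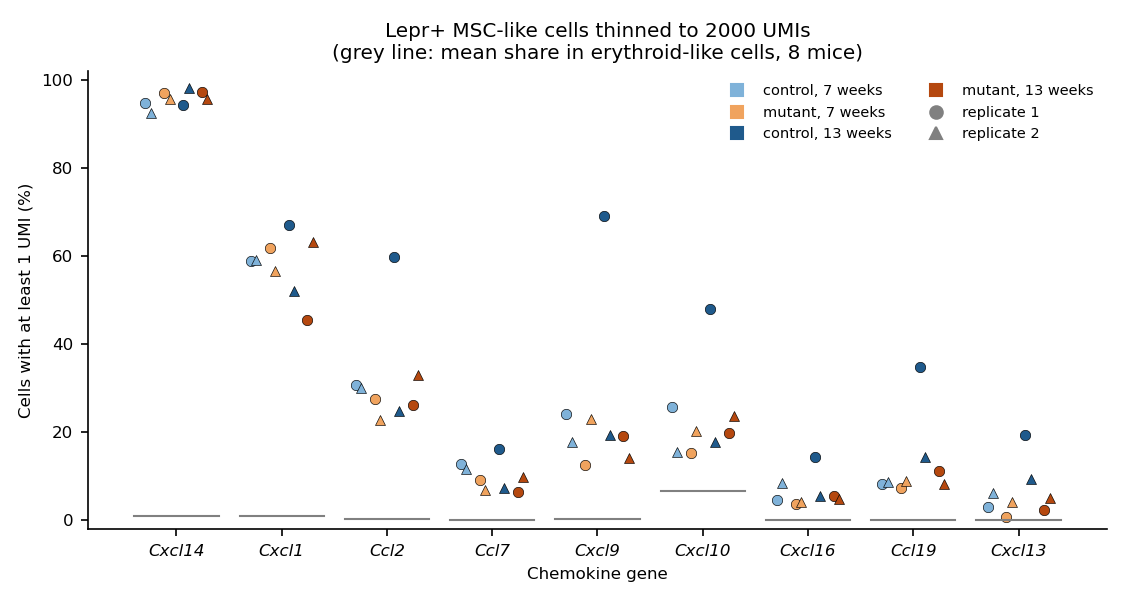
Share of Lepr+ MSC-like cells with at least 1 UMI of each chemokine after thinning to 2000 UMIs per cell, in percent, 1 point per mouse, with the mean share in erythroid-like cells as a grey line. Cxcl14 is in nearly every cell, and the replicate 1 control of 13 weeks lies far above the other mice for Cxcl9, Cxcl10, Ccl2 and Ccl19.

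Within each mouse, the top 10% of thinned Lepr+ MSC-like cells by UMIs of a gene held 22.8 to 25.5% of the Cxcl14 UMIs left after thinning, 40.9 to 58.3% of Cxcl1 and 53.0 to 76.8% of Ccl2. UMIs that are few are held by few cells whatever their pattern, so these shares are not compared between genes or mice.

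Osteoprogenitor-like cells carried the same genes at lower levels. For the average over ages edgeR called 0.896% of genes and 0 of 8 chemokines tested, and DESeq2 called 0. In the edgeR fit, 2 chemokines had an unadjusted p under 0.05 and 7 were negative. The share of all genes under that p is not given here, so these counts are not read as a result. Ccl19 was at 15.9 and 21.95 CPM in the controls and 10.4 and 20.8 CPM in the mutants at 7 weeks, and 41.6 and 34.0 CPM in the controls and 20.5 and 19.6 CPM in the mutants at 13 weeks. At 13 weeks both mutants lay below both controls, at 7 weeks the genotypes overlapped, and the average was -0.59 ± 0.21 (SE, adjusted p = 0.338). With the pairs as a block, which called 4.53% of genes for the average and 1.73% at 13 weeks, Ccl19 at -0.62 (adjusted p = 0.00995), Ccl2 at -0.63 (adjusted p = 0.0205) and Cxcl9 at -0.66 (adjusted p = 0.0125) were called for the average, and Ccl19 was called at 13 weeks, at -0.91 (adjusted p = 0.0124). None of these averages passed in the block over 6 mice, which called 3.91% of genes: Ccl19 was at -0.56 (adjusted p = 0.0529), Ccl2 at -0.25 (adjusted p = 0.343) and Cxcl9 at -0.28 (adjusted p = 0.313). Without a block, Cxcl9 was at -0.75 with 8 mice and at -0.28 without the replicate 1 control of 13 weeks.

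Cxcl13 had too few UMIs to be tested in osteoprogenitor-like cells with 8 mice, with 75 in the replicate 2 control of 13 weeks and 0 to 5 in each of the others. It reached the test in the fits without the replicate 1 control of 13 weeks only through that library, then the single control of its age, so its calls there support nothing and its values are not given. Ccl7 was at 15.9 and 19.1 CPM in the controls and 9.71 and 12.3 CPM in the mutants at 7 weeks, and 10.5 and 17.8 CPM in the controls and 3.69 and 20.3 CPM in the mutants at 13 weeks, with both mutants below both controls at 7 weeks, overlap at 13 weeks and an average of -0.45 that did not pass.

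Ccl2 in osteoprogenitor-like cells was at 97.6 and 169 CPM in the controls and 64.6 and 106 CPM in the mutants at 7 weeks, and 112 and 106 CPM in the controls and 39.3 and 116 CPM in the mutants at 13 weeks. The replicate 1 mutant was lowest at both ages, the genotypes overlapped at both, and the fit without a block gave -0.57 ± 0.28 (SE, adjusted p = 0.61). Cxcl14 was at 474 and 359 CPM in the controls and 458 and 675 CPM in the mutants at 7 weeks, and 449.6 and 866 CPM in the controls and 746 and 1169 CPM in the mutants at 13 weeks, with overlapping genotypes. Its average was positive, at 0.49 ± 0.23 (SE, adjusted p = 0.574), and did not pass with the block at 0.50 (adjusted p = 0.0509). It was 0.29 without the replicate 1 control of 13 weeks. Cxcl1 was at 139 CPM in the replicate 1 mutant of 13 weeks and at 260.4 to 426 CPM in the other 7 mice, with an average of -0.25 ± 0.28 (SE, adjusted p = 0.911).

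In Sca1+ MSC-like cells, 18 to 151 per mouse, single cells could set a level, and 0 of 8 chemokines tested passed by edgeR and 0 by DESeq2, beside 0.0196% of genes. An unadjusted p under 0.05 was found for 2 chemokines and for 323 of 5114 genes. Cxcl9 was at 273 and 936 CPM in the controls and 66.2 and 9.28 CPM in the mutants at 7 weeks, and 1744 and 685 CPM in the controls and 334 and 11.5 CPM in the mutants at 13 weeks. Both mutants lay below both controls at each age, and the fit gave -3.44 ± 0.85 (SE, adjusted p = 0.518). Cxcl9 was at -3.02 without the replicate 1 control of 13 weeks, where it was not called. The block over 6 mice called it, at -5.02 (adjusted p = 3.68e-06), beside 0.507% of genes, with 17, 6 and 2 UMIs in the mutants. Replicate numbers did not pair the mice in these cells, that fit has 1 residual degree of freedom, and the block over 8 mice called no chemokine there. With low counts kept, Cxcl9 (adjusted p = 1.13e-15), Ccl11, Ccl19 (0.0207) and Cxcl14 (0.0442) were called for the average, beside 0.9% of genes. Of the 568 Cxcl9 UMIs of the replicate 1 control of 13 weeks, 346 came from 1 cell. Ccl2 was at 0 to 62.9 CPM in 7 mice and at 1097 CPM in the replicate 1 mutant of 13 weeks, where 5 of 116 cells held 88.7% of its 1026 UMIs. Ccl7 was highest in the same mouse, at 697 CPM against 0 to 39.9 CPM, with 80.2% of 652 UMIs in 5 cells. Leaving out the replicate 2 mutant of 13 weeks made that mouse the only mutant of its age, and Ccl2 and Ccl7 were then called as higher at 13 weeks, beside 0.394% of genes. Cxcl10 was highest in the replicate 1 control of 13 weeks, at 697 CPM against 4.28 to 144 CPM in the others, and its average went from -0.96 to 0.45 without that mouse. Cxcl14 was at 78.9 to 1363 CPM, with an average of -1.33 ± 0.63 (SE, adjusted p = 0.782), which was -0.30 without the replicate 1 control of 13 weeks. In the same fits its value at 13 weeks turned from -0.46 to 1.58. Cxcl16 was at 7.60 to 89.0 CPM, with an average of -0.59 ± 0.48 (SE, adjusted p = 0.911), or -0.33 without that control.

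Vascular cells carried Cxcl9, Cxcl10, Cxcl16, Cxcl1 and Ccl2. In endothelial-like cells 0 of 6 chemokines tested and 0% of genes were called by edgeR, and 0 chemokines by DESeq2. An unadjusted p under 0.05 was found for 3 chemokines and for 327 of 10788 genes. Cxcl9 was at 358 and 146 CPM in the controls and 182 and 196 CPM in the mutants at 7 weeks, and 635 and 213 CPM in the controls and 100.1 and 201 CPM in the mutants at 13 weeks. The replicate 1 control was highest at each age, the genotypes overlapped at 7 weeks, both mutants were lower at 13 weeks, and the average was -0.95 ± 0.33 (SE, adjusted p = 1.00). Without the replicate 1 control of 13 weeks the average was -0.45 and the 13-week value went from -1.49 to -0.49. With low counts kept Cxcl9 was called for the average (adjusted p = 2.2e-05, beside 0.206% of genes) and at 13 weeks (adjusted p = 1.82e-06, beside 0.129%). Ccl2 was at 41.6 and 73.6 CPM in the controls and 45.4 and 84.5 CPM in the mutants at 7 weeks, and 114 and 42.6 CPM in the controls and 30.3 and 26.6 CPM in the mutants at 13 weeks. Both mutants lay below both controls at 13 weeks, and the value there was -1.495 ± 0.47 (SE, adjusted p = 1.00), or -0.59 without the replicate 1 control of that age. It was called with low counts kept, at 13 weeks (adjusted p = 0.000327) and for the difference between ages (-1.66, adjusted p = 0.00755, beside 0.0977% of genes). Cxcl10 was at 565 and 355 CPM in the controls and 449.9 and 494 CPM in the mutants at 7 weeks, and 469.6 and 185 CPM in the controls and 159.6 and 228 CPM in the mutants at 13 weeks, with overlapping genotypes and an average of -0.36 ± 0.25 (SE, adjusted p = 1.00), which became 0.055 without that control. Cxcl16 was at 21.9 to 43.5 CPM, with an average of 0.29 ± 0.20 (SE, adjusted p = 1.00). In pericyte-like cells Cxcl1 was at 251 and 1115 CPM in the controls and 1629 and 649 CPM in the mutants at 7 weeks, and 1056 and 473 CPM in the controls and 229 and 545 CPM in the mutants at 13 weeks, a wide spread within every group, with -0.21 ± 0.39 (SE, adjusted p = 1.00), or 0.16 without the replicate 1 control of 13 weeks. None of the 5 chemokines tested in pericyte-like cells and 0% of genes were called. The share of all genes with an unadjusted edgeR p under 0.05 is not given there. Such a p was found for 2 chemokines, a count not read as a result. These were Cxcl9 (-1.24) and Cxcl10 (-1.25). Leaving out the replicate 2 mutant of 13 weeks brought both past the threshold, at -2.33 (adjusted p = 0.0199) and -1.87 (adjusted p = 0.0349), beside 0.0571% of genes, and leaving out the replicate 1 mutant of that age took them to -0.66 and -0.75. The block over 6 mice called Cxcl9 at 7 weeks, at -2.15 (adjusted p = 0.00197), beside 0.0433% of genes, where replicate numbers did not pair the mice. Ccl2 was at 17.2 to 222 CPM there, with an average of 0.15 ± 0.40 (SE, adjusted p = 1.00). With low counts kept, Cxcl9 (adjusted p = 0.0125) and Cxcl10 (0.0122) were called in pericyte-like cells beside 0.144% of genes, and Cxcl14 (0.000361) in growth plate chondrocyte-like cells beside 0.203%.

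**Figure D5:**
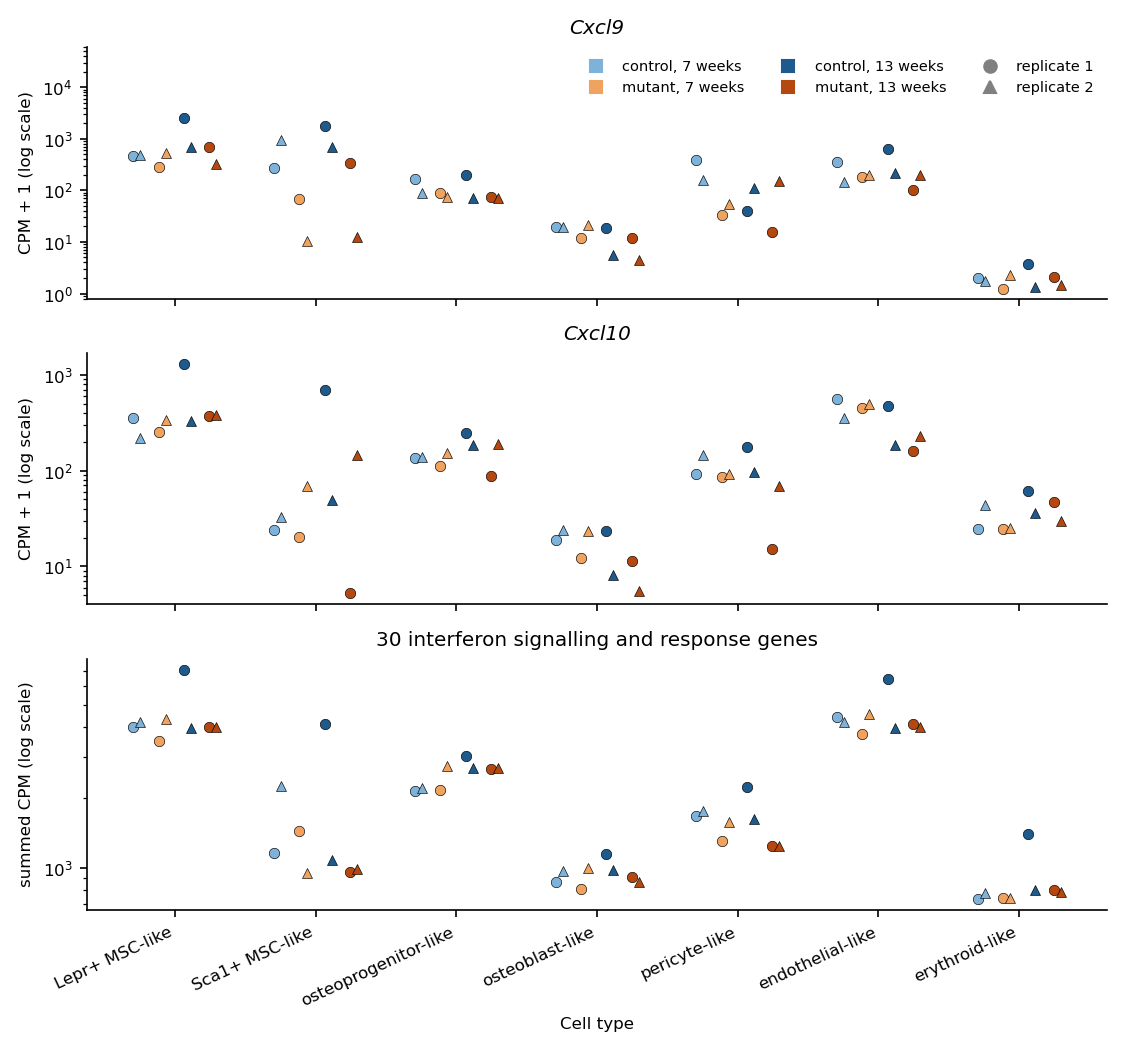
Level of Cxcl9 (top) and Cxcl10 (middle), as CPM + 1, and summed CPM of 30 interferon signalling and response genes (bottom) in each of 8 mice and 7 cell types, all on log axes, with colours for genotype and age and symbols for the replicate number. The replicate 1 control of 13 weeks has the highest interferon sum in each of the 7 types.

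In osteoblast-like cells 1.42% of genes and 0 of 9 chemokines tested were called for the average over ages, and 0 chemokines by DESeq2. An unadjusted p under 0.05 was found for 0 of the 9 and for 1655 of 14482 genes. Cxcl10 was at 17.8 and 23.0 CPM in the controls and 11.1 and 22.5 CPM in the mutants at 7 weeks, and 22.6 and 7.04 CPM in the controls and 10.3 and 4.53 CPM in the mutants at 13 weeks. The genotypes overlapped at both ages, each mutant lay below the control of its number, and the fit gave -0.64 ± 0.37 (SE, adjusted p = 0.593). With the pairs as a block Cxcl10 was called beside 8.22% of genes, at -0.65 (adjusted p = 0.011), and the block over 6 mice called it beside 6.9%, at -0.50 (adjusted p = 0.000617). Without a block it was at -0.099 when the replicate 1 control of 13 weeks was left out. Summed over all non-haematopoietic cells, all 10 chemokines had negative averages, with a median of -0.57 (-0.23 without the replicate 1 control of 13 weeks) beside -0.00480 over all genes tested, and edgeR called 0 of 10 beside 0.179% of genes. DESeq2 called Ccl19 and Cxcl9 in that sum beside 0.954% of genes, with adjusted p-values of 0.0104 and 0.00424. Such a sum moves with the share of each cell type, and fewer Lepr+ MSC-like cells and less RNA per cell cannot be told apart in it.

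Age was compared over both genotypes. In Lepr+ MSC-like cells all 9 fold changes of 13 against 7 weeks were positive, with a median of 0.90 beside 0.01 over all genes tested. edgeR called 0 of 9, beside 0.172% of genes, and DESeq2 called 0. An unadjusted edgeR p under 0.05 was found for 7 of the 9 and for 895 of 11596 genes. With low counts kept, 6 (Ccl19, Ccl2, Cxcl9, Cxcl10, Cxcl13 and Cxcl16) were called beside 1.49% of genes. DESeq2 called Ccl2, Ccl7, Ccl19 and Cxcl14 as higher at 13 weeks over all non-haematopoietic cells, beside 6.85% of genes. It also called them in the stromal types together, beside 1.27%. Over all non-haematopoietic cells edgeR called 0 of 10, beside 3.81% of genes. In that sum the replicate 1 control of 13 weeks was highest for Ccl2, at 87.2 against 21.8 to 46.5 CPM. It was also highest for Ccl19, at 15.4 against 2.27 to 8.23 CPM, but not for Ccl7 and Cxcl14. In Lepr+ MSC-like cells Cxcl13 had the largest value, at 1.31 ± 0.48 (SE, adjusted p = 0.496), and Cxcl14 was at 0.42 ± 0.16 (SE, adjusted p = 0.51). Leaving out the replicate 1 control of 13 weeks gave a median of 0.28 with 1 of the 9 negative. In that fit Cxcl9 went from 1.03 to 0.43, Ccl2 from 0.90 to 0.14, and Cxcl14 from 0.42 to 0.45. Leaving out the replicate 2 control of 13 weeks instead, which makes the outlying replicate 1 the only control of that age, edgeR called 5 (Ccl2, Ccl19, Cxcl9, Cxcl10 and Cxcl16) beside 0.499% of genes.

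Over the 9 types edgeR called 1 of 57 age fits, Cxcl9 in preosteoblast-like cells, 1 of 4 chemokines tested there beside 2.73% of genes. Keeping low counts gave 26 calls in 85 age fits, beside 3.27% of those of all genes. Cxcl13 in osteoprogenitor-like cells was 1 of these, again through 1 library. In preosteoblast-like cells Cxcl9 was at 8.83 and 3.28 CPM in the controls and 1.92 and 13.7 CPM in the mutants at 7 weeks, and 24.9 and 4.58 CPM in the controls and 35.2 and 3.15 CPM in the mutants at 13 weeks. The replicate 1 mice of 13 weeks were highest and all other values overlapped between ages. The fit gave 1.93 ± 0.51 (SE, adjusted p = 0.0346). Without the replicate 1 control of 13 weeks the value was 0.80 (adjusted p = 0.827), without the replicate 1 mutant of 13 weeks 0.48 (0.924), and with DESeq2 1.49 (0.867), and at a Leiden resolution of 1.5, which redraws the cluster, it turned to -0.57 (0.519), so the call rested on single mice of 28 to 108 such cells each and on the clustering. DESeq2 called Cxcl14 as higher at 13 weeks in osteoblast-like cells (0.94, adjusted p = 0.000899, beside 2.69% of genes) and Cxcl10 as lower in endothelial-like cells (-0.89, adjusted p = 0.0135, beside 3.04% of genes), neither of which passed with edgeR.

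Other genes of the pathway were read in the same fits. Of 26 other chemokine ligands, 8 were tested in Lepr+ MSC-like cells. None was called for genotype, beside 0.164% of genes for the average, and their median was -0.11. Cxcl5, a neutrophil attractant, was the only one called for age, beside 0.172% of genes. It was at 3.51 ± 0.59 (SE, edgeR adjusted p = 0.0432, 13 against 7 weeks). No value of Cxcl5 without the replicate 1 control of 13 weeks is given. Of 23 chemokine receptors, 2 were tested there and none was called. Ackr4, a scavenging receptor that removes Ccl19, was higher in mutant osteoblast-like cells, at 0.74 ± 0.11 (SE, adjusted p = 0.0112), the only one of 7 receptors tested there that was called, beside 1.42% of genes.

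All 30 interferon signalling and response genes were tested in Lepr+ MSC-like cells, and 26 had negative averages with a median of -0.38. There were 0 calls among them, beside 0.164% of genes. When the replicate 1 control of 13 weeks was left out, 20 were negative and the median was -0.056. Of 20 NF-kB signalling and response genes 13 were negative, with a median of -0.05 and 0 calls, and without that control 5 were negative, with a median of 0.11. Of these 20, Ptgs2, the prostaglandin synthase, was the only one called in osteoblast-like cells, at -1.03 (adjusted p = 0.0426, beside 1.42% of genes), and it was also called in preosteoblast-like cells, at -0.87 (adjusted p = 0.0412, beside 0.459% of genes). Without the replicate 1 control of 13 weeks neither call held, at -0.69 (adjusted p = 0.0613) and -0.57 (adjusted p = 0.511). All 16 dissociation and immediate early genes had positive averages in Lepr+ MSC-like cells, with a median of 0.29 with or without that control and 0 calls, and their sum ranged from 15061 to 24339.8 CPM over the mice. What part these sums have in the chemokine levels was not tested.

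The genes whose mean control level was most like that of a chemokine over 11 cell types were found among 9523 genes by Pearson's r. Ccl2 was most like Cxcl12 (0.987), followed by Zbtb37 (0.981) and Ebf3 (0.979). Cxcl12 and Ebf3 are marks of Lepr+ stroma. Cxcl10 was most like Atp2c1 (0.981), followed by Gbp2 (0.978) and Oasl2 (0.975), a pair of interferon-induced genes. Cxcl16 was most like Cx3cl1 (0.977), the other membrane-anchored chemokine, and Cxcl9 was most like Mill2 (0.977). The points share libraries and the cell types differ in depth, so these values describe the pattern only.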

How the data were processed

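Per the labels, methods and the submitters' processing notes, each of the 8 libraries was 1 mouse, made with 10x Genomics 3′ chemistry and quantified with Cell Ranger 6.1.2 on mm10, and the study's own analysis used Seurat 4.3, testing cells rather than mice. The gene annotation is not given in the sources used here. The deposited matrices hold raw UMI counts per gene and barcode as Cell Ranger kept them, without the study's later limits on cells, and no other per-sample column was left unused (0). From these counts, cells with 200 to 6000 genes and at most 10% mitochondrial UMIs were kept, doublets were removed by simulated neighbours at 0.8% per 1000 barcodes (9.67 to 11.3% of cells), libraries were integrated with Seurat 5.3.0 (reciprocal PCA, 2000 variable genes, 30 components) and clustered with scanpy 1.11.5 (20 neighbours, Leiden resolution 1), with the 10 chemokines and Sox4, Sox11 and Sox12 left out. Clusters needed 3 or more markers to be named and few-UMI clusters stayed unnamed, so shares of types may differ from those of the study. Rebuilt names were used because no annotation of cells was at hand.

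Counts were summed per mouse and type (at least 10 cells in each mouse) and fitted with edgeR 4.0.16 (filterByExpr, TMM, glmQLFit, glmQLFTest, 4 groups in 1 model, 4 residual degrees of freedom, threshold 0.05 after Benjamini-Hochberg adjustment over all genes of a type). DESeq2 1.42.0, DESeq2 size factors, no filter, a replicate block, leaving out each mouse, a mitochondrial limit of 5%, Leiden resolution 1.5, thinning and keeping few-UMI clusters were the alternatives, and leaving out both replicate 1 mice of 13 weeks with the block, and counting the gene lists without the replicate 1 control of 13 weeks, were added after seeing the data. The edgeR fit without a block, for the average over ages, was tested on simulated data in Lepr+ MSC-like and osteoprogenitor-like cells. The DESeq2, block, no-filter and leave-out fits were not tested in this way. The labels do not say what the replicate numbers mark beyond 2 mice per group, and the study describes control and mutant sisters in pairs. Deviations of same-numbered mice from their group means correlated over genes by more than 0.1 at both ages in 5 of 9 types (0.308 at 7 and 0.185 at 13 weeks in Lepr+ MSC-like cells), where the numbers were taken to pair the mice. With 2 mice per group both pairs of an age share 1 correlation, and the replicate 1 library was also the deeper one in every group.

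For each chemokine the text gives the 3 non-haematopoietic types with the highest control mean in which it was tested by edgeR, and every type in which edgeR called it with 8 mice. The members, gene lists and rules were chosen with earlier results of these data known. Shares of cells rest on cells thinned to 2000 UMIs. Standard errors, bounds and p-values measure the spread between 2 mice per group, except with low counts kept. Within a cell type, the fits with low counts kept hardly weigh a gene's own spread between mice. Their small p-values are not evidence at the level of mice.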

Additional observations from a re-analysis of the deposited data

Results flagged for a closer look

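A value was set apart where the highest or lowest of the 4 controls, or of the 4 mutants, lay further from its neighbour than Dixon's 95% limit for 4 values allows. Of 56 such groups of 4 mice, 11 held one, where chance gives about 1 in 20, or 2.8. The groups mix both ages, and the genes are not independent of one another.

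In Lepr+ MSC-like cells the replicate 1 control of 13 weeks was the outlying control for 6 chemokines: Cxcl9 at 2516 CPM, Ccl2 at 1671 CPM, Cxcl1 at 1628 CPM, Cxcl10 at 1294 CPM, Ccl19 at 263 CPM and Cxcl16 at 87.3 CPM. For Cxcl1 this mouse was high among controls only, since the replicate 2 mutant of 13 weeks was higher. The same control stood apart for Cxcl10 in Sca1+ MSC-like cells, at 697 CPM in 51 cells. Its summed level of 30 interferon signalling and response genes was also the highest of the 8 mice in both types, and what part that has in the chemokine levels was not tested.

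Among mutants, Ccl19 in Lepr+ MSC-like cells was set apart at 82.6 CPM in the replicate 1 mutant of 13 weeks. Ccl7 in Sca1+ MSC-like cells was at 697 CPM in that same mouse, with 523 of its 652 UMIs in 5 of 116 cells. In osteoprogenitor-like cells Ccl19 was low in the replicate 1 mutant of 7 weeks, at 10.4 CPM, and Cxcl1 was low in the replicate 1 control of 7 weeks, at 270.0 CPM.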

How the results depend on the processing

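DESeq2 size factors changed no call or direction of a chemokine. Ccl19, Cxcl9 and Cxcl13 had negative averages in Lepr+ MSC-like cells under each alternative run. Leaving out 1 mouse at a time gave, in Lepr+ MSC-like cells, averages from -0.98 to 0.14 for Ccl2, from -0.16 to 0.21 for Cxcl1 and from -0.87 to 0.11 for Cxcl10. At 13 weeks the fits ran from -1.70 to 0.53 for Ccl2, -0.66 to 0.48 for Ccl7, -0.41 to 0.35 for Cxcl1, -1.77 to 0.19 for Cxcl10 and -0.10 to 0.071 for Cxcl14, and at 7 weeks from -0.059 to 0.21 for Cxcl1, -0.26 to 0.44 for Cxcl10, -2.26 to 0.20 for Cxcl13 and -0.71 to 0.19 for Cxcl9. Elsewhere the averages ran from -0.55 to 0.65 for Ccl2 and -0.59 to 0.61 for Cxcl1 in pericyte-like cells, from -0.76 to 0.053 for Cxcl1 in osteoprogenitor-like cells, from -2.72 to 0.45 for Cxcl10 and -0.88 to 0.087 for Cxcl16 in Sca1+ MSC-like cells, from -0.62 to 0.055 for Cxcl10 and -0.022 to 0.49 for Cxcl16 in endothelial-like cells, and from -0.30 to 0.11 for Ccl7 and -0.28 to 0.15 for Cxcl14 over all non-haematopoietic cells. The share of Lepr+ MSC-like cells with a UMI differed by -4.84 to 1.31 percentage points for Cxcl1 and by -10.7 to 0.029 for Cxcl10. Each of these fits leaves 1 mouse in a group, so the chemokines called in them support nothing and are not counted here. In Lepr+ MSC-like cells, calls for the average, at 13 weeks and for age came when the replicate 2 control of 13 weeks was omitted. The outlying replicate 1 was then the only control of its age. In osteoprogenitor-like cells the calls were Cxcl13, through 1 library as described above, or Cxcl9. In Sca1+ MSC-like cells Ccl2 and Ccl7 were called as higher at 13 weeks once the replicate 2 mutant of that age was omitted. This left the mouse with 5 cells that hold most of their UMIs. Calls in pericyte-like cells for the average are described above. Genes called, with all 8 mice 19 in Lepr+ MSC-like, 30 in all non-haematopoietic, 206 in osteoblast-like and 106 in osteoprogenitor-like cells, ran from 8 to 41, 0 to 10, 70 to 159 and 45 to 97.

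With the pairs as a replicate block, 3 chemokines were called in Lepr+ MSC-like cells for the average and 3 at 13 weeks, 3 in osteoprogenitor-like and 1 in osteoblast-like cells, among 140, 536 and 1191 genes for the average, with 131 genes over all non-haematopoietic cells. Cxcl1 at 13 weeks was at -0.0083 in Lepr+ MSC-like cells. The block over 8 mice called no chemokine in Sca1+ MSC-like, preosteoblast-like, pericyte-like or growth plate chondrocyte-like cells, where the numbers did not pair the mice. The block over 6 mice, without both replicate 1 mice of 13 weeks and chosen after seeing the data, called 4 chemokines for the average, 1 at 7 and 5 at 13 weeks in Lepr+ MSC-like cells, 2 over all non-haematopoietic, 1 in osteoblast-like and 1 in osteoprogenitor-like cells (Cxcl13 again, which supports nothing), among 310, 262, 990 and 474 genes for the average. It turned the averages of Ccl2 (0.31), Ccl7 (0.14) and Cxcl10 (0.13) and the 13-week values of Ccl2 (0.88), Ccl7 (0.80) and Cxcl10 (0.21) in Lepr+ MSC-like cells, those of Cxcl1 over all non-haematopoietic (0.017), osteoprogenitor-like (0.035) and pericyte-like cells (0.46), and those of Cxcl10 in Sca1+ MSC-like (1.10) and endothelial-like cells (0.19).

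With no filter on low counts 5, 1 and 6 chemokines were called in Lepr+ MSC-like cells for the average, 7 and 13 weeks, 3 over all non-haematopoietic, 2 in osteoblast-like and 3 in osteoprogenitor-like cells, among 203, 244, 763 and 327 genes for the average. The 3 in osteoprogenitor-like cells include Cxcl13, through 1 library as described above, and that call supports nothing. DESeq2 called 2 chemokines over all non-haematopoietic cells, and 33, 160 and 379 genes in Lepr+ MSC-like, all non-haematopoietic and osteoblast-like cells. Thinning to 2000 UMIs gave 12, 16, 98 and 47 genes in Lepr+ MSC-like, all non-haematopoietic, osteoblast-like and osteoprogenitor-like cells, and turned Ccl2 in pericyte-like cells (-0.52), Cxcl14 over all non-haematopoietic cells (0.048) and Cxcl9 at 7 weeks in Lepr+ MSC-like cells (0.058). Thinning to 4000 UMIs turned the Cxcl14 share difference to -0.47. The 5% mitochondrial limit gave 44 genes in osteoprogenitor-like cells and turned Cxcl1 (-0.065) and Cxcl14 (0.012) at 13 weeks in Lepr+ MSC-like cells and Ccl7 over all non-haematopoietic cells (0.025). Keeping few-UMI clusters turned Cxcl1 at 13 weeks to -0.040. Summing stromal types alone gave 0.14 for Ccl7 and 0.15 for Cxcl14 in place of the negative values over all non-haematopoietic cells. At Leiden resolution 1.5, 12 genes were called in Lepr+ MSC-like cells and the age difference of Cxcl9 in preosteoblast-like cells turned to -0.57. The cause of these moves was not tested.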
